A study of Rattus norvegicus with 9 samples.

Results

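The isoforms described here are the transcripts that the deposited assembly places on chromosome MT, the mitochondrial genome of the rat. They were chosen by the chromosome of their transcript line in the assembly, and no expression value entered the choice. The rule found 9 of 145707 isoforms, in 5 loci. Of these, 7 had counts and passed the filter on low counts, and the other 2 were at 0 in every library. The study measured RNA in whole brains of 9 alcohol-naive male rats to ask what loss of the long non-coding RNA Lrap does to brain gene expression. Heterozygous (Lrap-/+) and homozygous (Lrap-/-) rats of the line Crl:WI-Lrapem1Geh carry, on 1 or both alleles, a deletion of 618 bp made with CRISPR/Cas9. Wild-type controls were Wistar rats from Charles River. Each genotype had 3 rats, all untreated. The sources used here do not give the rats' ages or say whether controls and mutants were littermates, so line and genotype cannot be told apart in a comparison with wild type. The labels number the rats but name no litter, so p-values measure the spread between these 9 rats.

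The mitochondrial genome is a small circle that encodes subunits of the respiratory chain, the ribosomal RNAs of the mitochondrial ribosome and a set of transfer RNAs. Both strands are transcribed into long precursors, which are cut at the transfer RNAs that lie between the other genes and so release separate ribosomal and messenger RNAs. Brain is rich in these RNAs because neurons depend on oxidative phosphorylation. Libraries of total RNA depleted of ribosomal RNA, as here, keep transcripts with and without a poly(A) tail.

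Library depth ran from 27489383 to 46975920 expected counts, which are RSEM's estimated read counts per isoform. The assembled chromosome 12 isoform that holds the 618 bases ran from 1.87 to 2.54 CPM in wild types, 0.996 to 1.11 in heterozygotes and 0.265 to 0.406 in homozygotes, in the order of the labelled genotypes. CPM expresses counts relative to the TMM-scaled size of a library. Marker lists of neurons, astrocytes, oligodendrocytes, microglia and endothelium were detected in all 9 libraries. The list of cerebellar granule cells varied widely within genotypes. It ran from 14.8 CPM in wild-type rat 2 to 195 CPM in wild-type rat 3, and from 16.4 CPM in homozygous rat 2 to 144 CPM in homozygous rat 1. In several other lists wild-type rat 2 was at an end of the range. It had the lowest summed marker level of the 9 in the neuronal, astrocyte and oligodendrocyte lists. In the astrocyte list wild-type rat 1 lay close to it, at 763 against 744 CPM. Wild-type rat 2 had the highest level in the choroid plexus list (521 CPM) and the blood list (366 CPM). Results that rest on this library are given with and without it. The counting error of the share on MT was 0.0161 percentage points or less in each library (half-width of the 95% Wilson interval), far below the spread between rats. Intervals of this kind hold counting error alone, because reads lacking molecular identifiers need not be separate molecules.

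The assembly holds only a few of the known mitochondrial transcripts under their own names. Mt-cyb, cytochrome b of respiratory complex III, is the single protein-coding transcript that the assembly comparison called a match to its reference. Its isoform MSTRG.109282.1 is 1 exon of 1211 bases on the plus strand at positions 14136 to 15346 (rn6). Whether the ends of this exon are those of the reference gene was not tested. The 2 isoforms at 0, MSTRG.109281.1 (AY172581.20, 69 bases from position 14062) and MSTRG.109283.1 (AY172581.2, 68 bases from position 15348), also matched their references and lie on the minus strand, where mammals encode transfer RNAs. RSEM gave both an effective length of 0, as it does for transcripts shorter than the sequenced fragments, so their 0 counts say nothing about their abundance. No member was annotated as a ribosomal RNA.

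The other 6 isoforms overlap a reference gene without matching it. Locus MSTRG.109279 holds 5 plus-strand isoforms between positions 68 and 6867, each of which the assembly comparison assigned to Mt-co1, the catalytic core of respiratory complex IV, by exon overlap alone. Its leading isoform, MSTRG.109279.1, joins an exon at 68 to 2647 to one at 5724 to 6867. The first of these exons lies where mitochondrial genomes of mammals hold the genes of the small and large ribosomal RNA; the deposited annotation names no such gene in this assembly, so its counts cannot be divided between the ribosomal RNAs and Mt-co1. Isoforms MSTRG.109279.3, MSTRG.109279.4 and MSTRG.109279.5 share the first start, the last exon and the end of the first long gap, and differ by a further gap that begins after position 993. MSTRG.109279.2 has its own 3 exons, at 68 to 238, 1105 to 2209 and 5356 to 6867.

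On the minus strand, MSTRG.109280.1 spans positions 1131 to 14061 and totals 9855 exonic bases. It overlaps Mt-nd6, a subunit of respiratory complex I and the protein gene encoded on the opposite strand from the rest, but runs far beyond it. It is assembled with the same gap, 2648 to 5723 (3076 bases), as the leading isoform, MSTRG.109279.3, MSTRG.109279.4 and MSTRG.109279.5 on the plus strand. A gap with the same start and end on both strands was found for 1 of 6 distinct MT gaps and for 1439 of 202341 distinct nuclear gaps (0.711%). Mitochondrial messenger RNAs are not known to be spliced, and whether these gaps are junctions in RNA was not tested.

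**Figure D1:**
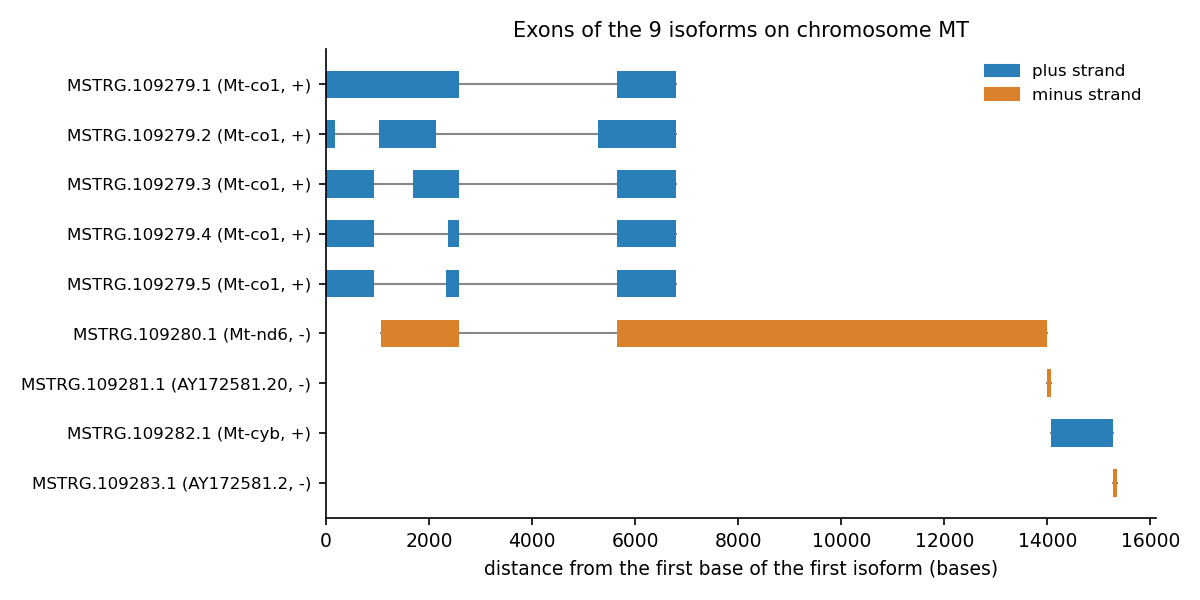
Exons (boxes) and gaps (lines) of the 9 isoforms on chromosome MT by distance in bases from the first base of the first isoform, with plus-strand isoforms in blue and minus-strand isoforms in orange. The gap of 3076 bases is drawn at the same place in 4 plus-strand isoforms and 1 minus-strand isoform, and no plus-strand exon lies between the Mt-co1 locus and Mt-cyb.

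Much of the plus strand is in no isoform. Of the 15348 positions between the first and last annotated base, 5303 (34.6%) lie in a plus-strand exon and 9992 (65.1%) in a minus-strand exon, and 2661 lie in both. The plus-strand stretch from 6868 to 14135 (7268 bases) is in no plus-strand exon. In mammals this stretch encodes Mt-co2, Mt-atp8, Mt-atp6, Mt-co3, Mt-nd3, Mt-nd4l, Mt-nd4 and Mt-nd5, all messenger RNAs for subunits of the respiratory chain or of ATP synthase. A second plus-strand stretch from 2648 to 5355 (2708 bases), where mammals encode Mt-nd1 and Mt-nd2, is likewise in no plus-strand exon. None of these messenger RNAs has a plus-strand isoform with counts in the deposited tables, so MT counts here are not a measure of mitochondrial messenger RNA as a whole.

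Counts on MT came almost entirely from a single isoform. MSTRG.109279.1 took between 95.8% and 97.8% of MT counts in each library, and the whole locus with the minus-strand isoform took between 99.1% and 99.6%. Mt-cyb took between 0.365% and 0.899%, and the minus-strand isoform between 0.0586% and 0.0993%. The share of all library counts on MT therefore follows this 1 isoform: in rats 1 to 3 of each genotype, it was 21.3%, 40.4% and 19.6% among wild types, 23.4%, 28.1% and 15.1% among heterozygotes, and 14.8%, 16.9% and 16.4% among homozygotes. Per unit length, MSTRG.109279.1 stood between 31.4 and 79.6 times above Mt-cyb in TPM, counts per transcript length scaled to a common total. The lowest ratio was in wild-type rat 1 and the highest in wild-type rat 2, so the whole range of the series lay within 1 genotype.

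Most MT totals were not whole numbers, as when RSEM divides reads with isoforms outside MT. The summed MT count was whole, within 0.05 counts, in 1 of 9 libraries, whereas the Mt-cyb count was whole in 9 of 9, as it is where no read is divided. MSTRG.109280.1 was whole in 6 of 9. Reads in the 2661 positions covered on both strands can be assigned to a strand only if counting used the strand. The minus-strand exon at 5724 to 14061 also lies opposite most of the plus-strand stretch from 6868 to 14135, so the same holds for reads there. MSTRG.109280.1 held 3782 to 11158 counts per library over its 9855 exonic bases, at 1.01% to 2.13% of Mt-cyb in TPM. The kit marks strand, and the sources used here do not say whether the counting took it into account, which was not tested.

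The leading isoform MSTRG.109279.1 reached 193776, 361701 and 164131 CPM in wild types 1 to 3. Heterozygotes 1 to 3 had 196335, 240759 and 182527 CPM, and homozygotes 172433, 163208 and 188300 CPM. Wild-type rat 2 stood alone at the top, the other 8 libraries lay between 163208 and 240759 CPM, and all genotypes overlapped. Its mean was 239869 ± 106545 CPM in wild types, 206540 ± 30428 in heterozygotes and 174647 ± 12692 in homozygotes (SD, 3 rats each). For homozygous against wild-type rats the log2 fold change was -0.46 (SE 0.27) with an adjusted p of 0.684 (edgeR quasi-likelihood test, Benjamini-Hochberg over 63699 isoforms). Without wild-type rat 2 it was -0.03, with an adjusted p of 1.

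Mt-cyb, the member with whole counts in all libraries, reached 1814, 1350 and 1025 CPM in wild types 1 to 3. The heterozygotes had 1194, 1294 and 872 CPM, and the homozygotes 1271, 862 and 971 CPM. Here wild-type rat 1, not rat 2, was the highest of the 9, and the genotypes overlapped. By genotype Mt-cyb averaged 1396 ± 397, 1120 ± 220 and 1035 ± 212 CPM (SD, 3 rats each, in the same order). The log2 fold change of homozygous against wild-type rats was -0.43 (SE 0.24, edgeR adjusted p = 0.681), and -0.19 without wild-type rat 1.

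The minus-strand isoform MSTRG.109280.1 was the steadiest member. Wild types 1 to 3 had 169, 217 and 161 CPM, heterozygotes 175, 233 and 170 CPM, and homozygotes 167, 168 and 177 CPM. Its highest library, heterozygous rat 2, was 1.44 times its lowest, against 2.22 times for MSTRG.109279.1 and 2.10 times for Mt-cyb. Wild-type rat 2 and heterozygous rat 2 were its highest pair of libraries, and the genotypes overlapped. The log2 fold change of homozygous against wild-type rats was -0.10 (SE 0.17, edgeR adjusted p = 0.877) and turned to 0.05 without wild-type rat 2. In TPM this isoform stood at 1.01% to 2.13% of Mt-cyb, lowest in wild-type rat 1.

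**Figure D2:**
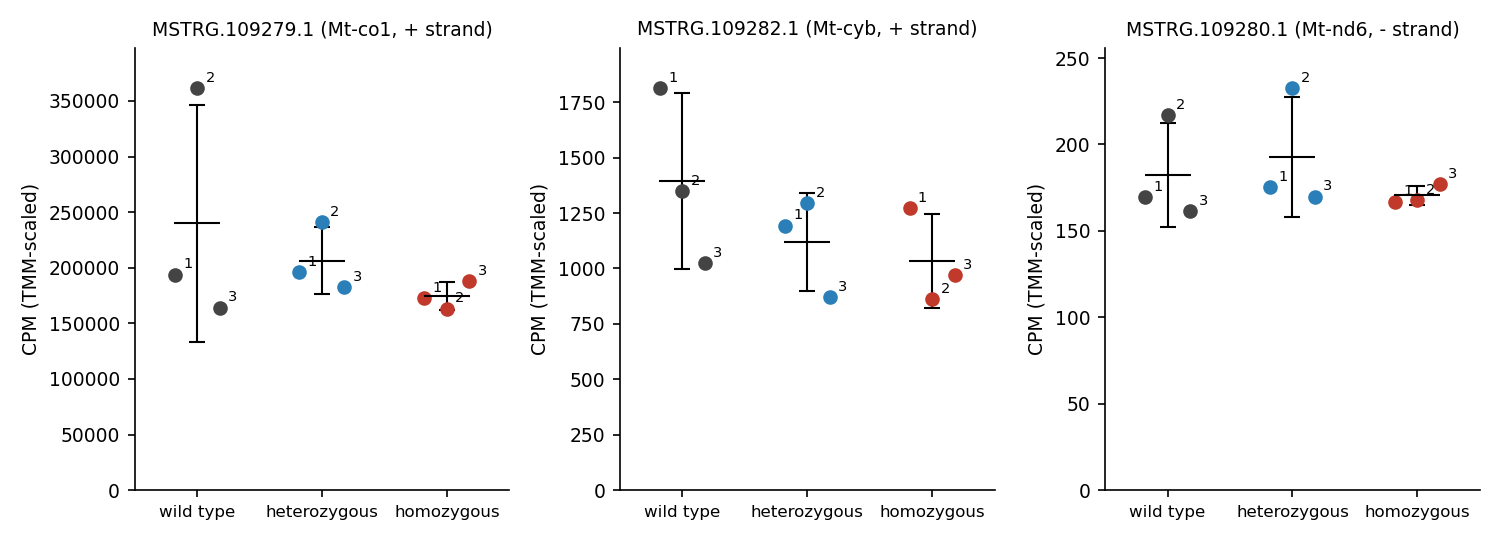
Level in CPM (TMM-scaled, linear axis from 0) of the leading plus-strand isoform, of Mt-cyb and of the minus-strand isoform in each library; points are rats, numbered as in the labels, and horizontal bars with whiskers are the mean and SD of 3 rats. Wild-type rat 2 is the highest library for MSTRG.109279.1 (361701 CPM), wild-type rat 1 for Mt-cyb (1814 CPM) and heterozygous rat 2 for MSTRG.109280.1 (233 CPM), and the genotypes overlap in each panel.

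The minor isoforms of the Mt-co1 locus did not move as 1 group. MSTRG.109279.2 reached 5977, 6147 and 4315 CPM in wild types 1 to 3, with 3863, 6585 and 4996 CPM for the heterozygotes and 6022, 4662 and 5388 CPM for the homozygotes. It varied 1.70 times over the 9 libraries, less than the leading isoform of its own locus. Its log2 fold change of homozygous against wild-type rats was -0.03 (SE 0.21, edgeR adjusted p = 0.974) and its sign changed with the scaling, at 0.01 under DESeq2 size factors. Its part of the locus counts was 2.99%, 1.67% and 2.56% for wild types, 1.93%, 2.65% and 2.66% for heterozygotes and 3.37%, 2.78% and 2.78% for homozygotes. The lowest share, in wild-type rat 2, belonged to the library in which the leading isoform was highest.

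The share of MSTRG.109279.2 in its locus was higher in all homozygous than in all heterozygous rats, at 2.98% against 2.42% on average. The exact two-sided permutation test gave p = 0.1, the smallest p that 3 against 3 rats allow, and 0.675 after Benjamini-Hochberg adjustment over the 18 comparisons of 6 library measures. Homozygous and wild-type rats overlapped (difference 0.57 percentage points, exact permutation p = 0.3, adjusted 0.675). That difference was 0.20 points without wild-type rat 2, 0.37 without homozygous rat 1 and 0.86 without wild-type rat 1. This measure was chosen after its values were seen.

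Isoforms MSTRG.109279.3, MSTRG.109279.4 and MSTRG.109279.5, which each have a further gap starting after position 993, were high in 1 heterozygous rat. MSTRG.109279.3 reached 146, 220 and 48.1 CPM in wild types 1 to 3, with 162, 580 and 56.1 CPM for the heterozygotes and 45.3, 99.7 and 43.9 CPM for the homozygotes. The highest library was 13.2 times the lowest, the widest range but 1 among the tested members. MSTRG.109279.4 ranged 17.8 times, from 1.41 CPM in heterozygous rat 3 to 25.0 CPM in heterozygous rat 2. MSTRG.109279.5 ranged 9.42 times, from 7.21 CPM in homozygous rat 3 to 67.9 CPM in heterozygous rat 2. All 3 were highest in heterozygous rat 2 and second highest in wild-type rat 2.

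Together these 3 isoforms took 0.0869%, 0.0733% and 0.0355% of the locus counts in wild types 1 to 3. Heterozygotes had 0.0973%, 0.271% and 0.0356%, and homozygotes 0.0321%, 0.0707% and 0.0276%. The genotypes overlapped in every pair, and heterozygous rat 2 stood alone above the rest. RSEM divides the reads of overlapping isoforms by a model, and these isoforms lie within the exons of the leading one apart from their extra gap, so their levels rest on how that division was made.

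**Figure D3:**
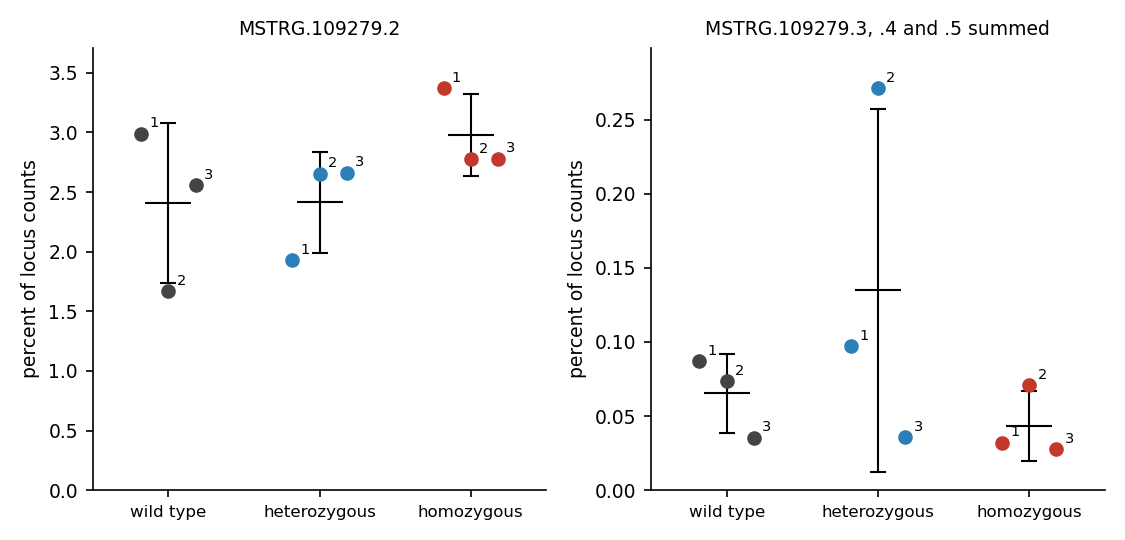
Percent of the counts of locus MSTRG.109279 assigned to isoform MSTRG.109279.2 (left) and to isoforms MSTRG.109279.3, MSTRG.109279.4 and MSTRG.109279.5 summed (right) in each library; points are numbered rats, and bars with whiskers are the mean and SD of 3 rats. The isoform on the left is lowest in wild-type rat 2 (1.67%) and highest in homozygous rat 1 (3.37%), and the 3 minor isoforms are highest in heterozygous rat 2 (0.271%).

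No MT isoform passed the test in any genotype comparison. In homozygous against wild-type rats, 0 of 7 members were called (edgeR adjusted p under 0.05) and 0 had an unadjusted p under 0.05. Of 63699 isoforms, 0% were called and 3.27% were lower at that unadjusted level. All 7 log2 fold changes were below 0, with a median of -0.46 against -0.05 over all isoforms tested, and the smallest adjusted p was 0.681. Without wild-type rat 2, 5 of 7 were below 0: that of MSTRG.109280.1 turned to 0.05 and that of MSTRG.109279.2 to 0.06. DESeq2 and limma-voom called 0 of the 7 too, where DESeq2 called 345 isoforms of the table (214 higher and 131 lower) and limma-voom 0.

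In heterozygous against wild-type rats, 0 of 7 members were called by edgeR, DESeq2 or limma-voom and 0 had an edgeR unadjusted p under 0.05, beside 0.00157% of isoforms called and 1.84% lower at that unadjusted level. The log2 fold changes were below 0 in 3 of 7, the median was 0.08 against -0.02 over all isoforms, and every adjusted p was 1. Over the table, DESeq2 called 198 isoforms in this comparison (119 higher and 79 lower) and limma-voom 0. The count below 0 turned on single libraries: it was 1 of 7 without wild-type rat 2 and 7 of 7 without heterozygous rat 2. The comparisons of both mutant genotypes share the wild-type rats. MSTRG.109279.3 had the largest value, 0.94 (SE 0.83), which turned to -0.33 without heterozygous rat 2. MSTRG.109279.4 and MSTRG.109279.5, at 0.68 (SE 0.84) and 0.60 (SE 0.74), turned to -0.50 and -0.40 without that rat.

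In homozygous against heterozygous rats, 0 of 7 members were called by edgeR, DESeq2 or limma-voom, where edgeR called 0% of isoforms. The log2 fold changes were below 0 in 6 of 7, with a median of -0.24 against -0.01 over all isoforms. MSTRG.109279.3 alone had an edgeR unadjusted p under 0.05, with a log2 fold change of -2.08 (SE 0.86), an unadjusted p of 0.0407 and an adjusted p of 1. For comparison, 1.4% of all isoforms were lower in homozygous rats at that unadjusted level. Without heterozygous rat 2 the log2 fold change was -0.79. At an unadjusted p under 0.05, DESeq2 placed 3 of the 7 below heterozygous rats, beside 1.11% of all isoforms, and limma-voom 0, beside 1.07%. Over the table, DESeq2 called 174 isoforms in this comparison (82 higher and 92 lower) and limma-voom 0.

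**Figure D4:**
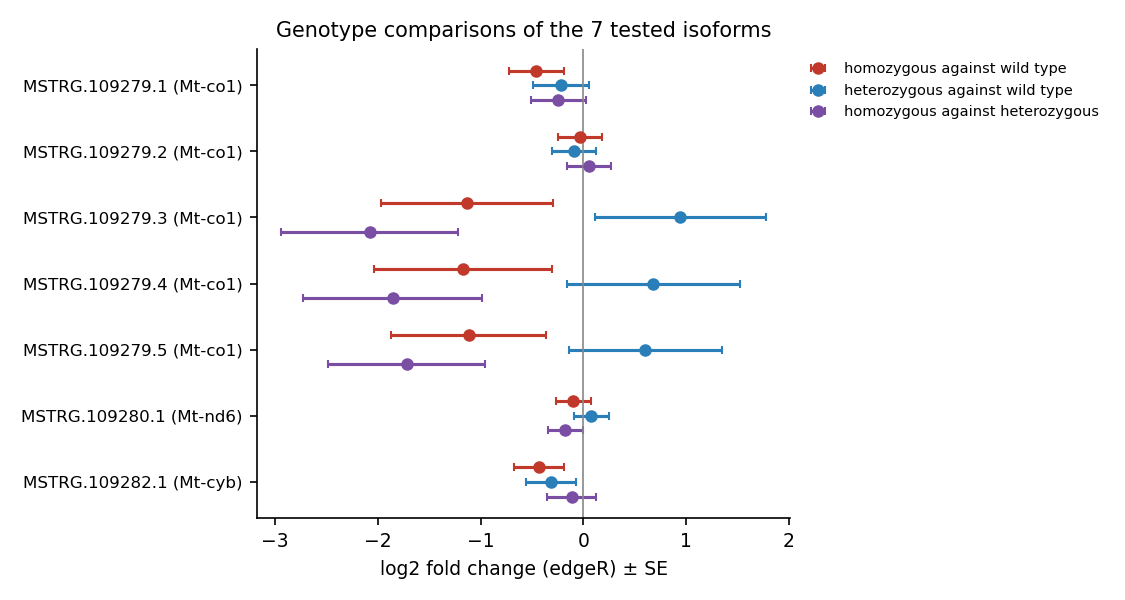
Log2 fold change (edgeR) with its SE for the 7 tested MT isoforms in the 3 genotype comparisons, with a vertical line at 0. The points of homozygous against wild-type rats all lie below 0, between -1.17 and -0.03, and the widest error bars belong to MSTRG.109279.3, MSTRG.109279.4 and MSTRG.109279.5.

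Whether homozygous and wild-type rats separate depended on the scale. By CPM, 0 of 7 members had all homozygous rats below all wild-type rats, where 6.32% of isoforms did. By TPM, 5 of 7 members did: MSTRG.109279.1, MSTRG.109279.2, MSTRG.109279.4, the minus-strand isoform and Mt-cyb. Of all isoforms tested, 44% did so by TPM. Mt-cyb reached 1117, 819 and 678 TPM in wild types 1 to 3, with 519, 819 and 320 TPM for the heterozygotes and 450, 332 and 342 TPM for the homozygotes. The minus-strand isoform reached 11.3, 14.4 and 11.5 TPM in wild types, with 8.19, 16.1 and 6.81 TPM for the heterozygotes and 6.43, 7.04 and 6.75 TPM for the homozygotes. With so large a share of the table separating the same way, the members' TPM values are not read as a result about them. Heterozygous rats were all below wild-type rats for 0 of 7 members by CPM and by TPM, where 3.85% and 11% of isoforms were. Homozygous rats were all below heterozygous rats for 0 of 7 by CPM and for MSTRG.109279.1 alone by TPM, where 4.79% and 9.3% of isoforms were.

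The share of counts on MT also separated these genotypes, and this changed with the denominator. All homozygous rats were below all wild-type rats. The mean difference was -11.1 percentage points, within the wild-type SD of 11.5 points, and was -4.40 points without wild-type rat 2. The exact two-sided permutation test gave p = 0.1, the smallest p that 3 against 3 rats allow (adjusted 0.675 over 18 comparisons). Over the 3 genotypes the exact permutation test gave p = 0.261 (adjusted 0.509), so the difference did not pass a test. The 10 most abundant nuclear isoforms were of mixed kinds. The largest on average, MSTRG.30741.1 (4.27% of counts), lies on the opposite strand from AABR07015042.1. Rn7sl1, the RNA part of the particle that guides secreted proteins to the endoplasmic reticulum, averaged 3.59%, and some of the others have no reference gene. Together the 10 took 23.3%, 10.1% and 14.0% of counts in wild types 1 to 3. Heterozygotes had 17.4%, 11.9% and 35.1% there, and homozygotes 32.9%, 27.6% and 31.8%. Each homozygous rat had more there than any wild-type rat. This share and the MT share are parts of the same total, so a larger value of one leaves less room for the other. Of counts outside MT, these isoforms took 29.5%, 17.0% and 17.4% in wild types 1 to 3. Heterozygotes had 22.7%, 16.6% and 41.3% on that basis, and homozygotes 38.6%, 33.2% and 38.1%. Each homozygous rat was again above every wild-type rat, and heterozygous rat 2 was the lowest of the 9.

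With those 10 isoforms left out of the total, MT took 27.8%, 44.9% and 22.7% of counts in wild types 1 to 3. On that basis heterozygotes had 28.3%, 31.9% and 23.3%, and homozygotes 22.1%, 23.3% and 24.0%. Homozygous and wild-type rats then overlapped, through wild-type rat 3 alone, which lay inside the homozygous range. The means still differed, at 31.8% in wild types (25.2% without wild-type rat 2) and 23.1% in homozygotes. What part, if any, the nuclear isoforms have in the genotype difference was not tested. In whole-brain RNA, fewer mitochondria-rich cells and less mitochondrial RNA per cell cannot be told apart. Most MT counts lie in MSTRG.109279.1, whose first exon covers the place of the ribosomal RNA genes in mammals. The libraries were depleted of ribosomal RNA, and whether this acted evenly across them was not tested.

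**Figure D5:**
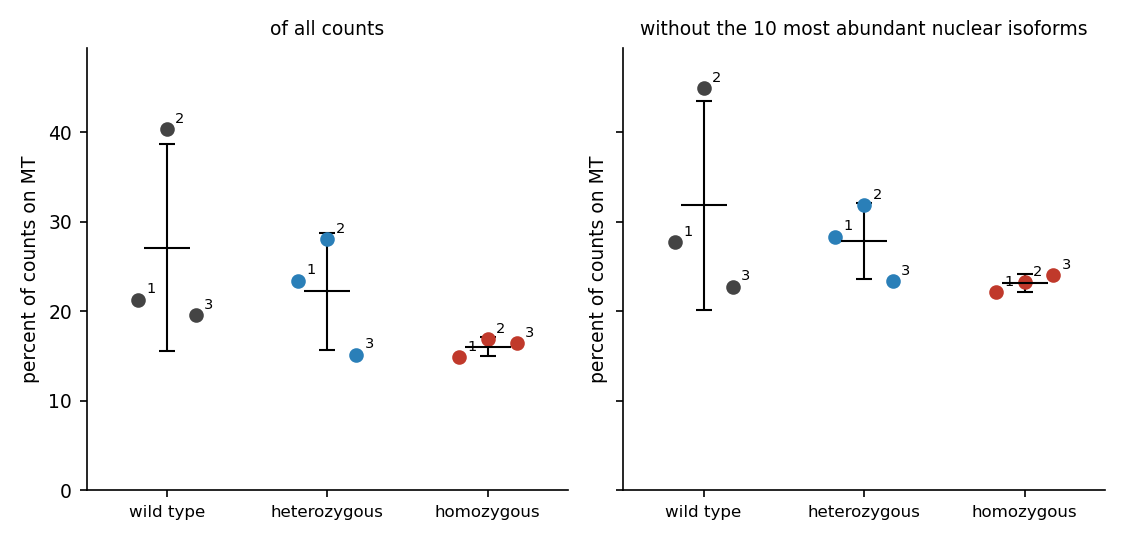
Percent of counts on chromosome MT in each library, of all counts (left) and of counts without the 10 most abundant nuclear isoforms (right); points are numbered rats, and bars with whiskers are the mean and SD of 3 rats. Homozygous rats lie between 14.8% and 16.9%, below every wild-type rat, on the left, and between 22.1% and 24.0%, overlapping wild-type rat 3 at 22.7%, on the right.

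No difference between genotypes in the proportions of Mt-cyb or of the minus strand among MT transcripts passed a test. Mt-cyb took 0.899%, 0.365% and 0.604% of MT counts in wild types 1 to 3, 0.592%, 0.518% and 0.463% in heterozygotes, and 0.706%, 0.510% and 0.498% in homozygotes. The exact permutation test over the 1680 ways of dividing 9 rats into the 3 genotypes gave p = 0.807 (adjusted 0.969 over 6 measures). The minus-strand share was 0.0839%, 0.0586% and 0.0950% in wild types, 0.0869%, 0.0932% and 0.0901% in heterozygotes and 0.0927%, 0.0993% and 0.0908% in homozygotes. Its exact permutation p over the 3 genotypes was 0.279 (adjusted 0.509), and wild-type rat 2 was the lowest of the 9. The ratio of MSTRG.109279.1 to Mt-cyb in TPM was 31.4, 79.6 and 47.0 in wild types, 48.1, 55.3 and 62.1 in heterozygotes and 40.1, 56.1 and 57.1 in homozygotes, with an exact permutation p of 0.975.

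Across the 9 rats, the Mt-co1 locus and Mt-cyb rose and fell together when each was taken relative to the counts outside MT. Pearson's r was 0.760 (permutation p = 0.00335, adjusted 0.0067 over 2 relations) and Spearman's rho 0.85 (permutation p = 0.00607, adjusted 0.0121). Without wild-type rats 1 and 2, the farthest from the median of Mt-cyb, r was 0.930 (permutation p = 0.00298) and rho 0.786 (permutation p = 0.048). Without wild-type rat 2 alone, r was 0.765 (permutation p = 0.0226) and rho 0.786 (permutation p = 0.0279). Both measures share their denominator, and what it adds to the relation was not tested. The share of counts on MT and the share of nuclear counts in isoforms without a reference transcript gave r = -0.340 (permutation p = 0.387) and rho = -0.533 (permutation p = 0.148). Without wild-type rat 2, r was -0.739 (permutation p = 0.0353) and rho -0.619 (permutation p = 0.115). Several of the 10 most abundant nuclear isoforms are among those without a reference transcript. With those 10 left out, this nuclear share ran from 8.68% in wild-type rat 3 to 18.1% in wild-type rat 2. With them it ran from 11.7% in heterozygous rat 2 to 31.5% in heterozygous rat 3. The relation without those 10 isoforms was not tested.

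A list of nuclear genes that act in copying, transcribing, processing or degrading mitochondrial DNA and RNA was followed. It also held Nrf1, Gabpa, Ppargc1a, Ppargc1b and Esrra, which regulate the transcription of nuclear genes. All 43 genes of the list were found and tested at the level of loci. None was called in a genotype comparison by edgeR, DESeq2 or limma-voom (edgeR, 39057 loci, of which 0% were called in homozygous against wild-type rats, 0.00768% in heterozygous against wild-type and 0.00256% in homozygous against heterozygous). In homozygous against wild-type rats, 29 of 43 had a log2 fold change above 0 and 14 below, with a median of 0.08 against -0.07 over all loci. This balance turned on single libraries. The number above 0 was 23 (median 0.02) without wild-type rat 2, 20 without wild-type rat 1 or without homozygous rat 3 (medians -0.02 and -0.02), and 39 (median 0.27) without wild-type rat 3. At an unadjusted p under 0.05, 6 were higher and 0 lower, beside 4.88% of all loci that were higher at that level. These were Fastk, an RNA-binding protein of the mitochondrial matrix, Esrra, a nuclear receptor that drives respiratory genes, Ptcd1 and Tbrg4, which act on mitochondrial RNAs, Polg, the mitochondrial DNA polymerase, and Polrmt, the mitochondrial RNA polymerase. Without wild-type rat 2, 2 were higher at that level and 0 lower, beside 3.01% of loci higher. Without wild-type rat 1, 2 were higher and 1 lower, beside 3.38% of loci higher. Without wild-type rat 3, 11 were higher and 0 lower, beside 12.9% of loci higher. Polg and Polrmt were named after their values were seen.

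Fastk reached 15.4, 9.40 and 15.9 CPM in wild types 1 to 3, with 15.7, 15.8 and 18.7 CPM for the heterozygotes and 24.5, 23.2 and 19.0 CPM for the homozygotes. Homozygous rat 3, at 19.0 CPM, lay close to heterozygous rat 3, at 18.7 CPM. Wild-type rat 2, the library highest in MT counts, was the lowest. Wild types averaged 13.6 ± 3.62 CPM and homozygotes 22.2 ± 2.89 CPM (SD, 3 rats each), a log2 fold change of 0.71 (SE 0.21). Esrra was at 7.25 ± 3.30 and 15.1 ± 2.97 CPM, lowest in wild-type rat 2 at 3.64 CPM, with a log2 fold change of 1.05 (SE 0.31). Ptcd1 and Tbrg4 had log2 fold changes of 0.58 (SE 0.22) and 0.51 (SE 0.20). The edgeR adjusted p of all 4 was 0.544, so none of these differences passed the test. In heterozygous against wild-type and homozygous against heterozygous rats, 0 of 43 had an unadjusted p under 0.05, where 1.37% and 0.512% of loci were higher at that level. In these comparisons 27 and 33 of 43 had log2 fold changes above 0, and these counts also turned on single libraries: in the first, 18 without wild-type rat 1 or rat 2 and 37 without wild-type rat 3, and in the second, 23 without heterozygous rat 1.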

How the data were processed

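Whole-brain total RNA of 9 rats was sequenced as stranded, ribosomal RNA-depleted, paired-end libraries, per the labels' protocols. The authors deposited RSEM expected counts (estimated counts that need not be whole) per locus and per isoform, TPM, and the percent of each locus assigned to each isoform, per the file headers. The isoforms are those of a transcript assembly compared with a reference annotation. Per the submitters' processing notes, cutadapt, HISAT2, StringTie and RSEM were used with build rn6. The sources used here give no versions or parameters and do not say whether reads were counted by strand. The count table and the library files differed in 0 values. The library files also held 100 spike-in isoforms, which were left out of totals and fits.

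Before fitting, the expected counts were rounded. Of 145707 isoforms, 63699 passed filterByExpr and were fitted together over all 9 libraries with edgeR 4.0.16 (quasi-likelihood, robust, legacy set to FALSE, TMM factors) in R 4.3.3, with Benjamini-Hochberg adjustment over all isoforms tested and a threshold of 0.05. The common biological coefficient of variation was 0.529. Loci (39057) were fitted likewise, and the code was tested on simulated counts. Library measures were compared with exact two-sided permutation tests, in which 3 against 3 rats cannot go below p = 0.1; no p is given for counts summed over the members. Libraries of 1 genotype differed by a chi-square per isoform of 33.0 or more, so none was counted as a repeat.

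The members, the list of 43 nuclear genes, the marker lists and the rules were chosen with earlier results of these data known. The planned share of ribosomal RNA could not be formed because no member is annotated as one, so the Mt-co1 locus took its place in the relation with Mt-cyb, and the share of members without a reference match is the remainder of that of Mt-cyb. The genes named are all counted MT isoforms, and of the nuclear list the 4 of smallest p in homozygous against wild-type rats. Alternatives covered scaling, filter, DESeq2 1.42.0, limma-voom (limma 3.58.1), the legacy method, the replicate number and each library left out. Same-numbered rats of different genotypes correlated between -0.0175 and 0.141, not all over 0.1, so numbers were not taken to pair rats.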

Additional observations from a re-analysis of the deposited data

How the results depend on the processing

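Of 573 recomputed values, 538 kept their direction and their side of the threshold. No MT isoform was called under any of the 17 settings of the fit, and the smallest adjusted p of a member was 0.25. Scaling by counts outside MT, with no factors, moved the median of all isoforms by -0.52, -0.19 and -0.33 (log2) in homozygous against wild-type, heterozygous against wild-type and homozygous against heterozygous rats. Under it, MSTRG.109280.1 turned to -0.11 in heterozygous against wild-type rats and MSTRG.109279.2 to -0.31 in homozygous against heterozygous rats, both less than or near that shift. MSTRG.109279.2 in homozygous against wild-type rats turned to 0.00639 with DESeq2 size factors and with DESeq2, and to 0.00315 with no filter. Without locus MSTRG.109279, an alternative chosen after seeing the data, the minus-strand share in homozygous against heterozygous rats turned to -0.347 points. Without wild-type rat 2 the relation of the MT share with the unannotated nuclear share reached r = -0.739 (rho -0.619).

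With each library left out in turn, the log2 fold change in homozygous against wild-type rats ranged from -0.17 to 0.0793 for MSTRG.109279.2 and from -0.17 to 0.0461 for MSTRG.109280.1. In heterozygous against wild-type rats it ranged from -0.42 to 0.21, -0.30 to 0.0856, -0.33 to 1.45, -0.505 to 1.20 and -0.405 to 1.25 for MSTRG.109279.1, MSTRG.109279.2, MSTRG.109279.3, MSTRG.109279.4 and MSTRG.109279.5, and from -0.0733 to 0.22 for MSTRG.109280.1. In homozygous against heterozygous rats it ranged from -0.11 to 0.28 for MSTRG.109279.2 and from -0.28 to 0.0232 for Mt-cyb. The difference in MT share in heterozygous against wild-type rats ranged from -8.64 to 1.77 points, above 0 only without wild-type rat 2. In the order homozygous against wild-type, heterozygous against wild-type and homozygous against heterozygous, the difference in the Mt-cyb share ranged from -0.18 to 0.0869, -0.227 to 0.0395 and -0.0200 to 0.0841 points, and that in the ratio of MSTRG.109279.1 to Mt-cyb from -12.2 to 11.9, -8.15 to 16 and -7.59 to 1.42. The share of MSTRG.109279.2 in heterozygous against wild-type rats ranged from -0.36 to 0.30 points.

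With the replicate number as a block, 0 MT isoforms were called in each comparison, so the block changed no call. In homozygous against wild-type rats the log2 fold change of MSTRG.109279.1 was -0.38 and that of Mt-cyb -0.41. The difference in MT share was -11.1 points, which a block with each number once per genotype cannot change. At an edgeR unadjusted p under 0.05, the block placed 1 member lower in homozygous than in wild-type rats, beside 3.45% of isoforms, against 0 without it. In homozygous against heterozygous rats it placed 2 lower, beside 1.46% of isoforms, against 1 without it. The intended recalculations without ribosomal RNAs, and those of the ribosomal RNA share, were not run because no member is annotated as one. For the share of counts on MT, counting error was far below the spread between rats. The 0 counts of MSTRG.109281.1 and MSTRG.109283.1 go with an effective length of 0 and bear on length, not depth.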

Other observations

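Spike-in sequences, which were kept out of the tests above, give another scale for the MT isoforms. There were 8.32, 12.9 and 3.87 MT counts per spike-in count in wild types 1 to 3, 6.85, 5.64 and 4.99 in heterozygotes and 5.36, 5.47 and 5.17 in homozygotes. On this scale wild-type rat 3 was the lowest of the 9 and wild-type rat 2 the highest, so the wild-type rats enclosed both mutant genotypes. Mt-cyb stood at 74.7, 47.1 and 23.4 counts per 1000 spike-in counts in wild types, with 40.5, 29.2 and 23.1 for the heterozygotes and 37.8, 27.9 and 25.7 for the homozygotes. Wild-type rat 1 was again the highest for Mt-cyb, and the genotypes overlapped. The sources used here do not say whether each library received the same amount of spike-in per mass of RNA, so these values are a description of the libraries.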
